A study of Arabidopsis thaliana with 24 samples.

Results

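The group described here is 75 of the 14557 genes in the count table of Arabidopsis thaliana seedlings under osmotic shock. The genes were chosen by measured values, as those whose transcripts in the shoot kept climbing from 1 h to 3 h in polyethylene glycol (PEG). In the raw counts, scaled to counts per 1000000 counts of each library (CPM) and averaged over 3 libraries, a gene had to reach at least 10 CPM in shoots after 3 h. Its log2 change from shoots in water, with 1 CPM added to both means, had to be at least 0.5 after 1 h and at least 2 after 3 h. The 3 h change also had to exceed the 1 h change by at least 1. The log2 change so computed is called the shoot change below. The shoot values in water and at 1 h and 3 h chose the genes and are given as a description with no test. The root libraries took no part in the choice and are tested.

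The seedlings were 7 d old, of a line labelled ulox (the labels do not say what this is), with no wild type among the samples. They were raised at 21 °C in days of 16 h light and 8 h dark on 1% sucrose medium, and stood in 30% PEG of molecular weight 8000 (-2.0 MPa) or in water. The 8 groups were shoots after 1, 2 and 3 h of PEG, shoots in water, roots after 1, 2 and 3 h of PEG, and roots in water, each with 3 biological replicates of 30 to 50 seedlings. MARS-seq, which counts the 3′ ends of transcripts, gave 1203312 to 6090852 counts per shoot library and 1597302 to 7029587 per root library. The source names give 1 h as the only time of the water samples, so at 2 h and 3 h the effect of PEG and that of the hour cannot be told apart. In the titles those libraries carry time 0 instead. All PEG times share the same 3 water libraries of their tissue. The marker genes went with the tissue names: RBCS1A, the small subunit of Rubisco, had 20788 to 35452 CPM in the 12 shoot libraries and 97.0 to 306 CPM in the 12 root libraries. CASP1, a Casparian strip protein of the root endodermis, had 2.49 to 7.02 CPM in shoot libraries and 279 to 524 CPM in root libraries.

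When water is withheld, plants make abscisic acid (ABA), whose receptors block clade A protein phosphatases and so free kinases that switch on the ABF factors. ABF factors bind the ABA-responsive element (ABRE). The DREB and CBF factors bind the dehydration-responsive element (DRE) of cold and drought genes, in a branch that needs less ABA. The targets of both include dehydrins and other hydrophilic proteins that protect membranes and enzymes, and enzymes of proline and raffinose synthesis.

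Promoters of 4 of the 10 genes with the largest 3 h shoot change are printed because their start regions hold the most matches to the ABRE core (ACGTG), the DRE core (CCGAC) and the evening element (AAAATATCT). Each run is the 250 bases before the annotated gene start in RefSeq's TAIR10.1, read 5′ to 3′ on the gene's strand, and capitals mark the matches on either strand.
COR15A, chr2:17712331-17712580, minus strand: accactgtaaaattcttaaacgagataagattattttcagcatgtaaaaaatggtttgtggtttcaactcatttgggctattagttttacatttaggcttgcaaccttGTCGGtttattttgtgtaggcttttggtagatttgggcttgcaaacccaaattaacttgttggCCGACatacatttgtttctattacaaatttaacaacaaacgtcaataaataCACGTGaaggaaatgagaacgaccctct
GolS3, chr1:3019389-3019638, plus strand: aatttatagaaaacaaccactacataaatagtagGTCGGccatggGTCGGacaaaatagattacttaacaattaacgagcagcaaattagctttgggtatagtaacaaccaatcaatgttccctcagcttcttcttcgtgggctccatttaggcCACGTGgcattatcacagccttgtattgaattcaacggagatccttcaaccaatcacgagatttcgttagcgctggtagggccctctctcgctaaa
ERF53, chr2:8985709-8985958, plus strand: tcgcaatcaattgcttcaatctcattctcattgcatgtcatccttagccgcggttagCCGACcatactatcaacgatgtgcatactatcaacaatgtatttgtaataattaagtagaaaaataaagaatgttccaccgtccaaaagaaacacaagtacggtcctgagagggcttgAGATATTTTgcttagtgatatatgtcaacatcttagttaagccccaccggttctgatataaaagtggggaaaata
RD26, chr4:13709171-13709420, minus strand: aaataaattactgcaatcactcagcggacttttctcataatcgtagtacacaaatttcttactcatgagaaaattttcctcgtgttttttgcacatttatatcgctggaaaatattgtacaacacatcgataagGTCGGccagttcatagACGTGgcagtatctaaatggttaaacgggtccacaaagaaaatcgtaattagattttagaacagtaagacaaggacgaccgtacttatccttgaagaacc
COR15A encodes a chloroplast cold-acclimation protein, GolS3 a galactinol synthase, ERF53 a DREB-type factor and RD26 a NAC factor. In COR15A and GolS3 the capitals CACGTG are 1 G-box, whose palindrome holds the ABRE core on both strands, and 2 DRE cores stand farther from the start. ERF53 holds 1 DRE core and, on the other strand, 1 evening element, the motif of evening-phased clock targets. RD26 holds 1 DRE core and 1 ABRE core. AT1G68500, tied with ERF53 and RD26 at 2 matches but lower in 3 h shoot change, is not printed.

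Over all 73 protein-coding members, 37 promoters (50.7%) held the ABRE core between 250 bases before and 50 after the start, against 26.7% of all 27443 nuclear protein-coding promoters. The DRE core stood in 23 (31.5%), against 15.1% of all promoters, and the evening element in 11 (15.1%), against 2.82%. The G-box CACGTG, each of which is also counted as the ABRE core on both strands, stood in 18 (24.7%), against 7.68%. The CGCG box core (CGCGT) stood in 10 (13.7%), against 8.70%. The HD-Zip I site (CAATNATTG) stood in 0 of the 73, against 1.07%. All motifs were searched on both strands. Among the 5529 promoters of genes with at least 10 CPM in shoots after 3 h, the shares were 29.8% for the ABRE core, 17.1% for the DRE core, 3.65% for the evening element, 10.02% for the G-box and 10.6% for the CGCG box core. In the 250 bases before the start alone, the evening element stood in 9.59% of members and 2.36% of all promoters. Both an ABRE core and a DRE core stood in 13 of the 73 promoters, and none of the ABRE core, DRE core or evening element in 22. The most DRE cores, 4, stood in the window of LTI78, better known as RD29A, the gene in which the element was defined. The most ABRE cores, 10 on both strands from 5 G-boxes, stood in the window of AFP3, which encodes a partner of the ABA factor ABI5. The window of COR15B, the neighbour of COR15A on the same strand, held none of these letters. A match is a run of letters and not a measured binding site.

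**Figure D1:**
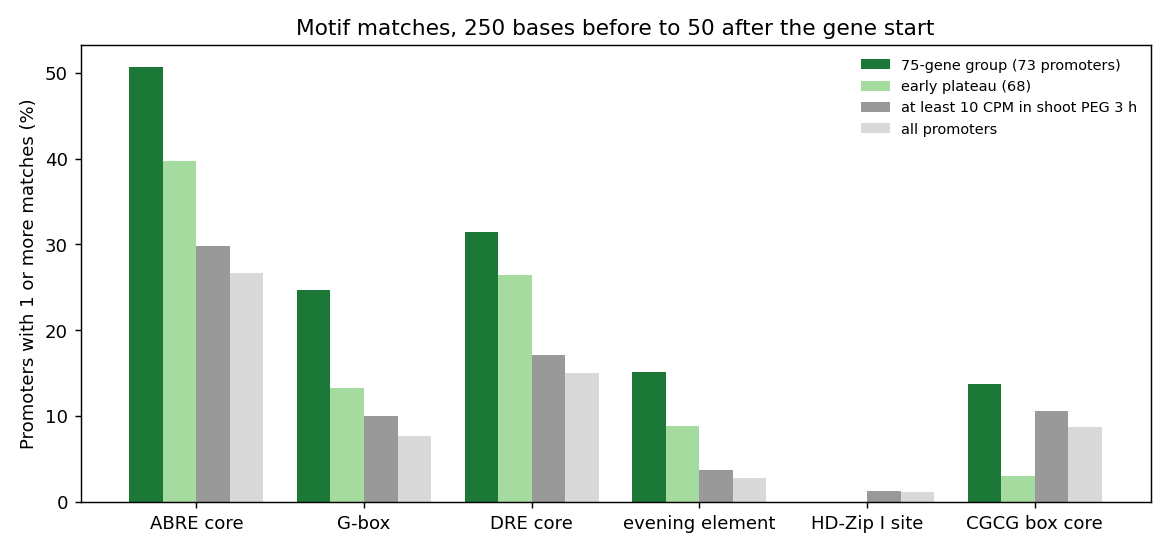
Share of promoters (y axis, %) with at least 1 match to each motif (x axis) in the 75-gene group (73 protein-coding promoters), in the 68 early-plateau genes, in genes of at least 10 CPM in shoots after 3 h of PEG, and in all promoters. The ABRE core bar of the group stands at 50.7%, against 26.7% for all promoters.

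In total 150 genes had at least 10 CPM in shoots after 3 h and a 3 h change of at least 2. The 75 members are those among them that were up by 1 h and gained at least 1 more log2 unit by 3 h. Another 68, the early-plateau genes, gained less than 1 after 1 h, and 7, the late genes, were up by less than 0.5 at 1 h. Just inside the limit on the gain lay AT5G65207 (1.01), AT2G44130 (1.01) and AT4G06536 (1.02), and just outside lay AT3G52740 (0.997), KUP9 (0.987) and AIF1 (0.983). Just inside the limit on the 3 h change lay AT1G21790 (2.02), AT3G11580 (2.06) and AT5G54930 (2.1), and just outside lay the dehydrin gene ERD10 (1.99), AT2G16365 (1.95) and AT5G06570 (1.91). With a pseudocount of 5 CPM in place of 1, the rule kept 46 genes, all of them members.

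The 75 genes together took 1513 ± 173 CPM of the shoot libraries in water, 5184 ± 869 CPM after 1 h of PEG, 8815 ± 134 CPM after 2 h and 17084 ± 682 CPM after 3 h (SD, n = 3 each). In roots they took 3655 ± 855 CPM in water, 5232 ± 1229 CPM after 1 h, 4745 ± 718 CPM after 2 h and 5243 ± 1244 CPM after 3 h. The shoot sums of neighbouring times did not overlap, and the root sums of all 3 PEG times overlapped each other and those of water. The shoot order of water, 1 h and 3 h follows from the choice of genes. Genes of high level weigh most in the sums, such as KIN2 with 3613 CPM and LTI78 with 2525 CPM in shoots after 3 h. The root sums at 3 h also carry the high KIN2 library described below. In a bulk tissue, more cells of a type and more RNA per cell cannot be told apart. In the annotation 16 members, among them ABF1, P5CS1, COR15B, DREB2A, DREB2B, HSFC1, CT-BMY and NF-YB2, overlap a gene on the other strand. Reads of such a pair could not be told apart if counting ignored strand.

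**Figure D2:**
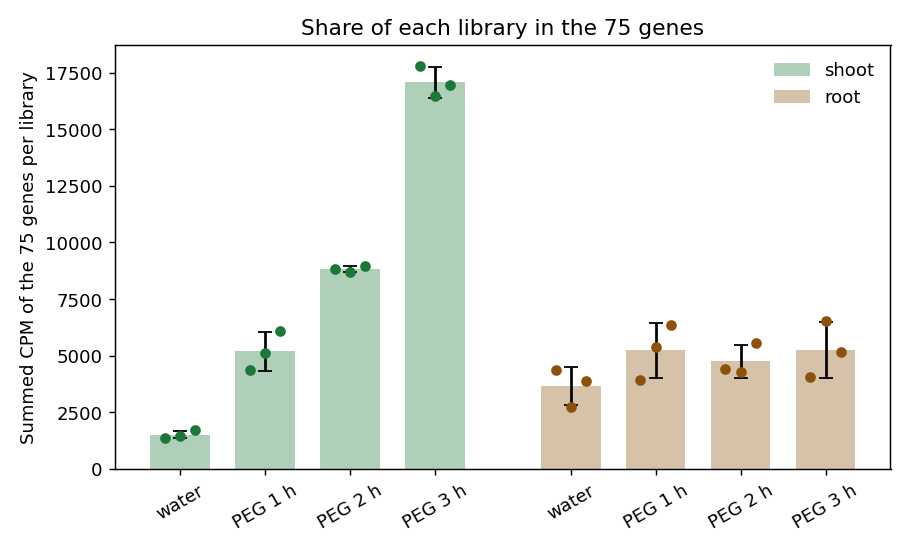
Summed CPM of the 75 genes (y axis) in each library (points), with group means (bars) and SD (error bars, n = 3), for shoots and then roots, each from water to 3 h of PEG (x axis). The shoot means climb to 17084 CPM at 3 h, while the root means lie between 3655 and 5243 CPM.

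The median shoot change was 1.31 at 1 h (0.51 to 3.70), 2.27 at 2 h (0.04 to 4.46) and 2.96 at 3 h (2.02 to 5.84). The 2 h libraries were not used to choose the genes, though their change is taken from the same water libraries. The 2 h mean lay between the 1 h and 3 h means in 69 of the 75 genes. It lay above the 3 h mean in 5 and below the 1 h mean in 1. The rule set the 1 h and 3 h changes at least 1 log2 unit apart, which favours a 2 h mean between them. The share of all genes with such a 2 h mean was not counted. The median gain was 0.79 from 1 h to 2 h and 0.77 from 2 h to 3 h, so on the log2 scale the climb was close to even. In CPM, the median gene had made 36.0% of its gain between 1 h and 3 h by 2 h. The first hour held the largest of the 3 steps in 51 genes, the second hour in 16 and the third in 8.

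The libraries themselves showed the order. All 3 h libraries lay above all 1 h libraries in 73 of the 75 genes, as they did in 17.1% of the 5589 genes of at least 10 CPM, a contrast the choice fixed. All 2 h libraries lay above all 1 h libraries in 62 members, against 20% of those genes. All 3 h libraries lay above all 2 h libraries in 65 members, against 7.93%. Water, 1 h, 2 h and 3 h stood in order with no overlap in 48 members, against 1.56%. These shares describe the group, since its 1 h and 3 h means were selected for the same direction.

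**Figure D3:**
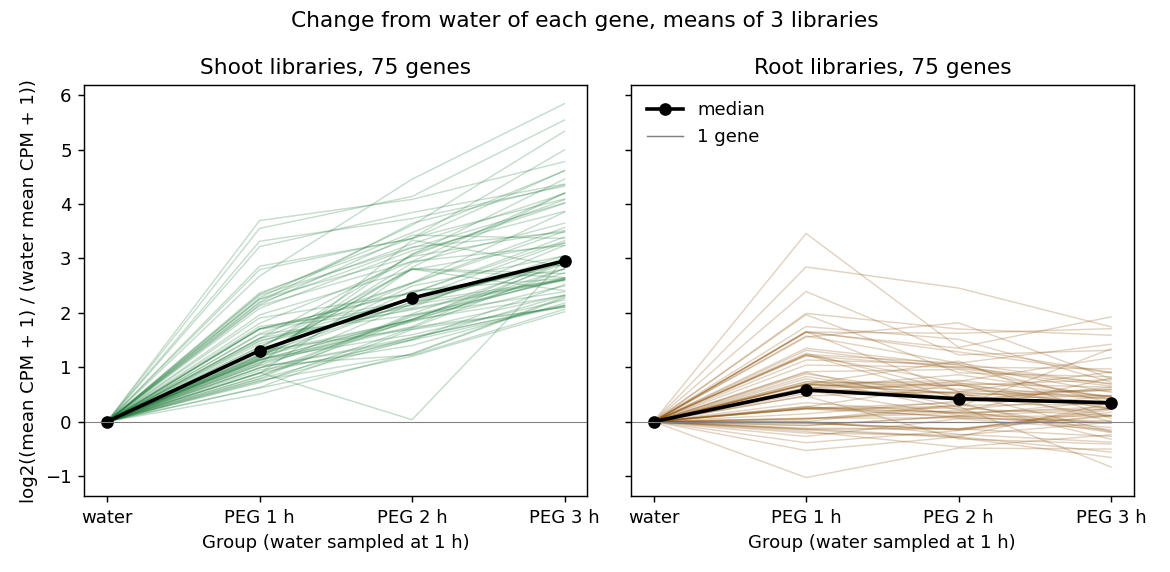
Log2 change from water (y axis, 1 CPM added) of each of the 75 genes (thin lines) and their median (black) in water and after 1, 2 and 3 h of PEG (x axis), in shoots and in roots, from means of 3 libraries. The shoot median climbs to 2.96 at 3 h, while the root median is 0.58 at 1 h, 0.42 at 2 h and 0.35 at 3 h.

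The dehydration and cold proteins were 10 members. Their median shoot change was 1.66 at 1 h, 2.55 at 2 h and 3.71 at 3 h. Over all 4 shoot groups, 9 of the 10 stood in order with no overlap. So did 48 of all 75 members and 1.56% of genes of at least 10 CPM in shoots after 3 h. The rule favoured this order. COR15A had 20.9, 27.2 and 29.8 CPM in water, 90.6, 117 and 182 CPM after 1 h of PEG, 321, 333 and 329 CPM after 2 h and 1203, 996 and 1068 CPM after 3 h. Its 3 h shoot change of 5.34 was among the 3 largest, and no libraries of neighbouring times overlapped. COR15B, its neighbour on chromosome 2, had 4.74, 5.32 and 4.30 CPM in water, 20.9, 35.95 and 51.00 CPM after 1 h of PEG, 128, 106 and 144 CPM after 2 h and 356, 310.3 and 328 CPM after 3 h, with the highest 3 h shoot change of all, 5.84. The COR15 proteins protect chloroplast membranes on freezing and drying.

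LTI78 (RD29A), a hydrophilic protein long used as a reporter of both pathways, had 117, 168 and 126 CPM in water, 574, 696 and 704 CPM after 1 h of PEG, 1345, 1220.2 and 1424 CPM after 2 h and 2240.5, 2466 and 2869.8 CPM after 3 h. LTI30 (XERO2), a dehydrin that binds membranes, had 32.4, 33.7 and 39.9 CPM in water, 108, 123 and 148 CPM after 1 h of PEG, 293, 261 and 282 CPM after 2 h and 611, 667 and 729 CPM after 3 h. In both genes the 4 groups stood apart with no overlap. KIN2, a small cold-inducible protein, had 321, 332 and 493 CPM in water, 879, 1074 and 1775 CPM after 1 h of PEG, 1501, 1790.0 and 1608 CPM after 2 h and 4036, 3544 and 3259.9 CPM after 3 h, and its highest 1 h library lay above its lowest 2 h library. KIN1, beside KIN2 on chromosome 5, averaged 508 ± 86.7 CPM after 3 h and 34.2 ± 2.78 CPM in water (SD, n = 3 each). KIN1 shared 3.47%, and KIN2 6.51%, of the 40-base words in their last 500 bases with another gene, each with the other, so a small part of their counts could be split between them. COR15A and COR15B shared none.

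LEA14, a late embryogenesis abundant (LEA) protein, had 1239.9, 982 and 1038 CPM after 3 h and 176, 236 and 239 CPM in water. LEA3 and HVA22D, a homologue of a barley protein induced by ABA, had 3 h shoot changes of 3.02 and 3.57. RD20, a caleosin of lipid droplets, had the smallest 3 h change of these 10, with 15.8, 15.05 and 15.8 CPM after 3 h and 1.58, 3.54 and 2.15 CPM in water.

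Transcription factors were 16 members, with median shoot changes of 1.43, 2.29 and 2.65 at 1, 2 and 3 h. RD26, a NAC factor of the ABA response, had 12.6, 13.00 and 18.7 CPM in water, 175, 178 and 258 CPM after 1 h of PEG, 236, 254 and 309.8 CPM after 2 h and 432, 426 and 439 CPM after 3 h. Most of its change was made in the first hour, 3.70 of 4.78, and its 3 h libraries lay above all others. NAC3 (NAC055), a close relative, had 1.19, 2.36 and 2.15 CPM in water, 17.98, 30.9 and 29.01 CPM after 1 h of PEG, 37.8, 41.1 and 43.00 CPM after 2 h and 71.5, 54.8 and 50.03 CPM after 3 h. RD26 and NAC3 are each lost from the group without shoot PEG 1 h replicate 1, and RD26 also without shoot PEG 1 h replicate 2 and NAC3 without shoot PEG 3 h replicate 1.

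Of the DREB-type factors, ERF53 had 1.98, 2.95 and 2.15 CPM in water, 30.4, 40.1 and 44.6 CPM after 1 h of PEG, 63.5, 57.7 and 53.4 CPM after 2 h and 159, 155 and 153 CPM after 3 h. Its groups did not overlap, and its 3 h shoot change was 5.54. AT4G28140, another AP2-type DNA-binding protein, had 1.19, 2.36 and 2.15 CPM in water, 13.4, 16.5 and 11.9 CPM after 1 h of PEG, 27.6, 26.8 and 32.6 CPM after 2 h and 94.7, 84.9 and 94.6 CPM after 3 h, also with no overlap. RAP2.1, a DREB-type repressor, had a 3 h change of 2.97, RAP2.6, an ERF factor, one of 4.09, and DREB2C one of 2.61.

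DREB2A and DREB2B, activators of drought and heat genes, did not climb to the end. DREB2A had 1.98, 1.18 and 1.23 CPM in water, 1.96, 6.18 and 7.94 CPM after 1 h of PEG, 11.3, 17.98 and 19.2 CPM after 2 h and 21.6, 10.7 and 3.89 CPM after 3 h. Its 3 h libraries spread from below the highest 1 h value to above all 2 h values, and it is 1 of the 2 members whose 3 h and 1 h libraries overlap. DREB2A leaves the group without shoot PEG 1 h replicate 1 or without shoot PEG 3 h replicate 1. DREB2B averaged 5.96 ± 2.83 CPM after 1 h, 19.97 ± 1.65 CPM after 2 h and 17.9 ± 6.35 CPM after 3 h (SD, n = 3 each), so its 2 h and 3 h means differed by less than the spread at 3 h.

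The homeodomain factors HB-7 and HB-12, which damp growth under ABA, had 3 h shoot changes of 2.65 and 2.39, and HB-12 had 18.3, 17.7 and 15.6 CPM after 3 h and 1.98, 1.77 and 3.68 CPM in water. HB-12 leaves the group without shoot PEG 1 h replicate 3. ABF1, one of the ABRE-binding factors, had 13.4, 15.4 and 14.1 CPM in water, 32.7, 32.4 and 31.5 CPM after 1 h of PEG, 92.9, 69.9 and 77.6 CPM after 2 h and 90.6, 85.3 and 106 CPM after 3 h, with 2 h and 3 h libraries that overlapped. ZAT6, a zinc finger factor, had a 3 h change of 2.64, HSFC1, a heat shock factor, one of 2.62, and NF-YB2, a subunit of nuclear factor Y, one of 3.05. AT3G11580, of the B3 family, was at the lower edge with 2.06.

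Signalling and clock genes were 8 members. ELF4, a component of the evening complex of the clock, had 10.7, 17.7 and 13.2 CPM in water, 53.3, 67.9 and 80.3 CPM after 1 h of PEG, 197, 173 and 185 CPM after 2 h and 300.0, 292 and 317 CPM after 3 h. Its 4 groups did not overlap, and its 3 h shoot change was 4.35. ABI2, a clade A phosphatase that switches ABA signalling off, averaged 4.36 ± 1.04 CPM in water, 10.4 ± 1.77 CPM after 1 h of PEG, 18.3 ± 1.04 CPM after 2 h and 34.7 ± 5.87 CPM after 3 h (SD, n = 3 each). A second protein phosphatase, AT3G05640, reached a change of 2.96. MAPKKK18, a kinase of the ABA-activated cascade, averaged 13.1 ± 2.41 CPM after 3 h and 1.01 ± 0.933 CPM in water. MAPKKK18 falls out of the group without shoot water replicate 2. PUB19, a U-box ubiquitin ligase, AT2G44130, a kelch repeat protein, and CIPK5, a kinase driven by calcium sensors, had 3 h changes of 3.39, 4.33 and 2.18. AFP3 had 2.14.

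Metabolic enzymes were 10 members. GolS3, which makes the galactinol that feeds raffinose synthesis, had 0.79, 2.36 and 3.68 CPM in water, 6.54, 7.28 and 7.94 CPM after 1 h of PEG, 25.4, 27.1 and 27.2 CPM after 2 h and 57.3, 72.2 and 83.7 CPM after 3 h. Its second step, 1.74, was larger than its first, 1.33, and neighbouring groups did not overlap. CT-BMY (BAM3), the main beta-amylase of leaf starch breakdown, had 71.5, 70.3 and 77.04 CPM in water, 304, 386 and 361 CPM after 1 h of PEG, 651, 543 and 620.2 CPM after 2 h and 749, 857 and 925 CPM after 3 h, also with no overlap. P5CS1, the rate-limiting enzyme of stress-induced proline synthesis, had 14.2, 23.6 and 22.1 CPM in water, 43.5, 50.95 and 40.3 CPM after 1 h of PEG, 69.8, 76.7 and 82.6 CPM after 2 h and 179.5, 140.1 and 149 CPM after 3 h. The 3 glycosyltransferases UGT73C1, UGT76E11 and AT4G09500 reached 3.65, 2.30 and 2.14, the hydrolase AT1G73480 reached 3.48, and the glucosinolate oxidase FMO GS-OX4 reached 2.81.

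In 2 enzymes the 2 h mean was slightly above the 3 h mean. CYP81D11, a cytochrome P450, averaged 27.2 ± 4.49 CPM after 3 h and 28.4 ± 8.41 CPM after 2 h (SD, n = 3 each). ACHT4, a chloroplast thioredoxin, averaged 53.2 ± 15.3 CPM after 3 h and 56.8 ± 5.85 CPM after 2 h. Both pairs differed by less than the replicate spread. AT4G33980, annotated only as an uncharacterized protein, had the widest such gap, with 24.1, 14.04 and 10.6 CPM after 3 h and 26.4, 20.4 and 22.8 CPM after 2 h, which still overlapped.

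Cell wall genes were 4. EXPA10, an expansin that loosens walls, had 20.2, 21.9 and 23.3 CPM in water, 69.3, 77.4 and 72.7 CPM after 1 h of PEG, 131, 109 and 110.2 CPM after 2 h and 209, 225 and 247 CPM after 3 h, with no overlap. The pectin lyase-like gene AT1G48100 reached a change of 4.20, the LysM domain gene AT4G25433 one of 4.08, and the pectin methylesterase inhibitor-like gene AT3G17130 one of 3.05.

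The remaining 27 members are of other or unknown function, with median shoot changes of 1.25, 2.20 and 2.85 at 1, 2 and 3 h. AT1G68500, with no annotated function, had 18.2, 18.9 and 27.9 CPM in water, 88.6, 115 and 138 CPM after 1 h of PEG, 278, 227 and 247 CPM after 2 h and 591, 493 and 573 CPM after 3 h, with no overlap between groups. AT5G54585, also unannotated, had a 3 h change of 4.61, and AT1G51090, of the heavy metal-associated family, one of 4.02. The farnesylated protein FP6, the WD40 proteins AT1G49450 and AT1G78070, the SAUR-like genes AT4G22620 and AT4G12410, and the amino acid-binding domain gene ACR1 lay between 2.32 and 3.86. The other members without a described role, AT1G70640, AT1G07985, AT5G20670, AT1G11210, AT1G16850, AT4G16000, AT5G61820, AT3G62550, AT4G06536, AT1G20030, AT2G28400, AT3G05980, AT5G54930 and AT1G21790, lay between 2.02 and 4.01. AT5G65207, at 2.61, overlaps AT5G65205 on the same strand, so its counts may be shared. AT3G60930, at 2.80, is annotated as a pseudogene, and 21.0% of its 40-base words stood in other genes, so its counts are uncertain.

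AT2G07870, annotated as a noncoding RNA, is a member through 1 library. It had 38.3, 8.86 and 1.53 CPM in water, 32.4, 35.1 and 26.3 CPM after 1 h of PEG, 19.9, 26.1 and 4.03 CPM after 2 h and 335, 34.8 and 34.7 CPM after 3 h. Only the first 3 h library stands out, which is also the shallowest of all 24, with 1203312 counts, and the 3 h libraries overlap those of 1 h and of water. It is the 1 gene whose 2 h mean lay below the 1 h mean, and it falls out of the group without that library or without shoot water replicate 3.

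**Figure D4:**
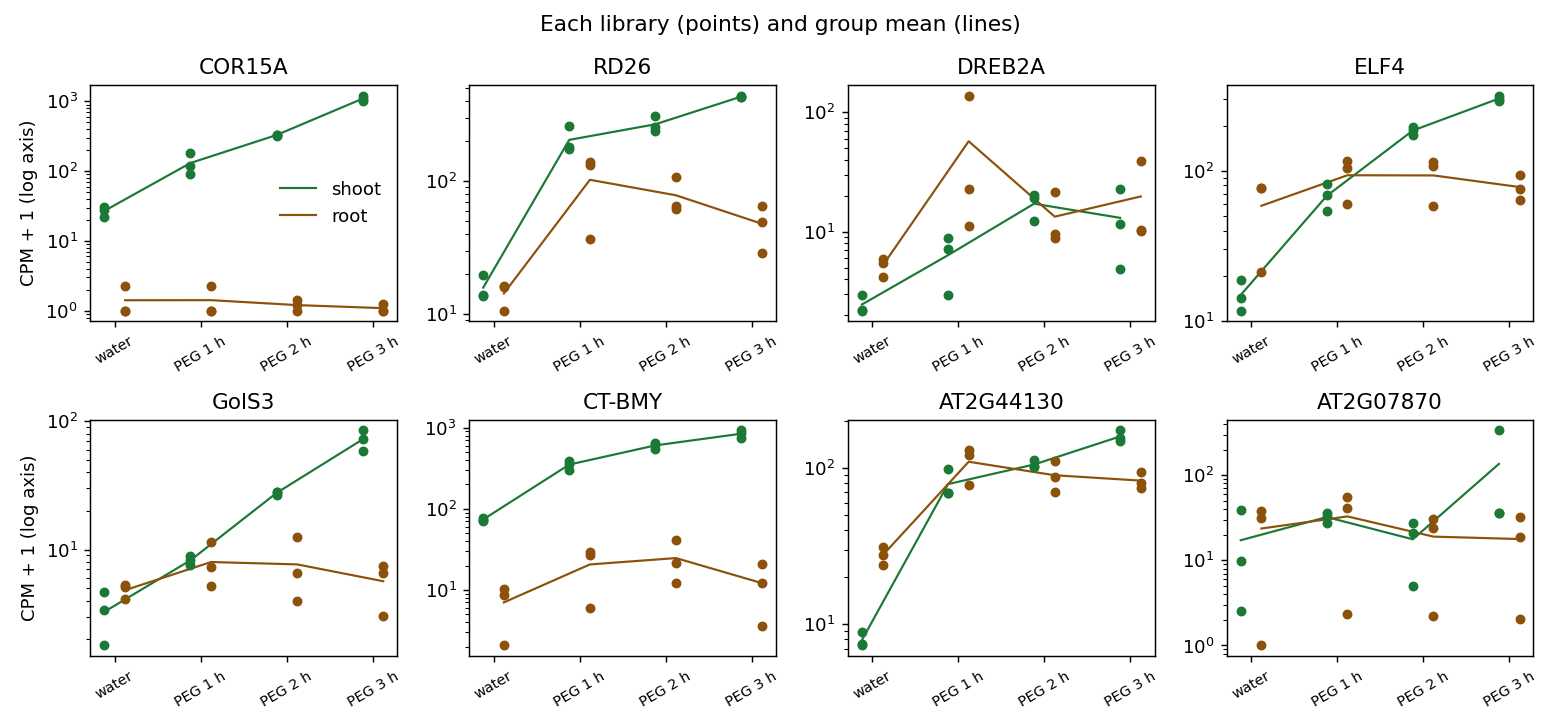
CPM + 1 on a log axis (y) of 8 genes in each library (points) with group means (lines), in water and after 1, 2 and 3 h of PEG (x), shoots beside roots. COR15A climbs in shoots and is at or near 0 in roots, and AT2G07870 rests on 1 shoot library at 3 h.

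The wider pathways were read from 14 lists of 145 genes, 136 of them in the table, of which 25 were members. The values given for list genes are shoot changes at 3 h and at 1 h. Of 10 RD29, COR and KIN genes 5 were members, and the list medians were 2.63 and 1.29, beside 0.02 and -0.03 over all genes of at least 10 CPM. Outside stood COR413-PM1, a membrane protein, at 2.03 and 1.05, and COR414-TM1 at 1.76 and 0.66. Of 11 DREB and CBF factors counted 5 were members. CBF3, an activator of the cold response, stood at 4.91 and 3.99, and CBF1 at 2.34 and 2.58, so both failed only on the gain after 1 h. Of 7 NAC factors 2 were members, while ATAF1 (3.80 and 3.30), NAC032 (3.58 and 3.03) and NAC102 (2.63 and 2.64) also failed only on that gain.

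Of 15 ABA signalling genes 3 were members, and the list medians were 2.4 and 0.94. NCED3, the rate-limiting enzyme of stress-induced ABA synthesis, stood at 2.90 and 2.55, and the phosphatases ABI1 and PP2CA stood at 2.68 and 2.08 and at 2.56 and 1.89, all short only of the gain. HAI1, HAI2 and NAC019 met all limits on change but not the level of 10 CPM. Of 7 dehydrins 1 was a member, 4 had a 3 h change of at least 1, and the list medians were 1.21 and 0.70. RAB18, a dehydrin known for its response to ABA, stood at -0.01 and -0.15. RD29B, of the RD29, COR and KIN list, stood at 1.81 and 0.29. It averaged 1.09 CPM in water and 6.33 CPM after 3 h, a level at which the added 1 CPM lowers the change. The clock list held 1 member of 12, ELF4. The medians of that list were 0.78 and 0.46. RVE1 stood at 2.60 and 1.86 and PRR5 at 2.29 and 2.11, both short only of the gain. LUX, a partner of ELF4, stood at 1.65 and 1.26, and TOC1 at 1.55 and 0.59. Lower were ELF3 at 0.82 and 0.23, GI at 0.74 and 0.29, and CCA1 at 0.58 and 0.17.

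Of 9 genes of proline and raffinose metabolism 2 were members, P5CS1 and GolS3. P5CS2, the paralogue used in growth, stood at 0.37 and 0.35. It averaged only 0.73 CPM in water and 1.24 CPM after 3 h, so the added 1 CPM lowers its change. ProDH, which breaks proline down, stood at -0.13 and 0.08. Of 11 starch breakdown genes CT-BMY was the 1 member, beside BAM1 at 1.74 and 1.04. The HD-Zip list gave 2 members of 8, the LEA and other RD list 2 of 7, and the zinc finger list 1 of 8. In that last list 3 genes had 3 h shoot changes of -1 or less, among them AZF3 at -2.94 and -1.29. The lists of cuticular wax, of sugar transport and fermentation and of jasmonate synthesis gave 0 members of 9, 12 and 10. In the second of these, ADH1 at 3.30 and 0.06 and SUS1 at 2.00 and -0.65 failed only on the 1 h change.

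Applied to the root libraries, the whole rule was met by 0 of the 75 genes and by 6 of all 14557. A 3 h root change of at least 2 on the log2(CPM + 1) scale was reached by 0 members and 37 genes. With library totals as the scale 41 members had a root change of at least 0.5 at 1 h, as had 39.6% of all genes. With composition-corrected CPM (TMM) it was 28 members and 26.9%. With library totals the root change was largest at 1 h in 40 members, at 2 h in 18 and at 3 h in 16, against 52.04%, 24.9% and 23.04% of all genes whose root changes differed. With TMM it was 29, 23 and 22 members, against 41.6%, 29.2% and 29.2%. UGT73C1, with no root count in these groups, has no such time. The members' shares are close to those of all genes. In water the root mean exceeded the shoot mean in 50 members, while after 3 h it did so in 8, among them RAP2.6, AFP3 and CIPK5. Over the 5589 genes of at least 10 CPM in shoots after 3 h the shares were 54.7% in water and 60.5% after 3 h. The rule picked genes for their gain in shoots, so this shift in the members follows from it and is no separate result. In 8 members, COR15A, COR15B, AT1G48100, UGT73C1, AT3G62550, ACR1, UGT76E11 and RD20, all 4 root means were under 1 CPM. COR15A had 0, 0 and 0.266 CPM in roots after 3 h of PEG and 0, 0 and 1.24 CPM in water.

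The root fit by edgeR's quasi-likelihood test with Benjamini-Hochberg adjustment held 9751 genes and 58 of the 75 members. The other 17 were too low in root to test, among them COR15A, COR15B, ERF53, AT4G28140, NAC3, LEA3, RD20 and DREB2B. At an adjusted p under 0.05, 3 of the 58 members were higher after 1 h of PEG than in water, against 0.164% of all genes tested. After 2 h 2 members were higher, against 0.123%, and after 3 h 1 was, against 0.0513%. At 1, 2 and 3 h DESeq2 called 4, 3 and 2 members higher, against 0.935%, 0.513% and 0.4% of all genes with an adjusted p. An edgeR fit of all 24 libraries called 6, 3 and 2, against 0.948%, 0.483% and 0.41%. At each time 0 members were lower, against 0.308%, 0.0615% and 0.174% of all genes at 1, 2 and 3 h. At an unadjusted p under 0.05 members lower were 1, 0 and 1, against 5.8%, 3.25% and 3.26% of all genes. DESeq2 called 0 members lower at each time, against 1.6%, 0.575% and 0.759%, and the fit of all 24 libraries 0, against 1.11%, 0.429% and 0.602%. Between roots after 3 h and after 1 h of PEG, 0 members were higher and 0 lower, as were 0% and 0% of all genes. At an unadjusted p under 0.05 this was 0 higher and 3 lower (RD26, LTI78 and CIPK5), against 0.585% and 0.636% of all genes, and DESeq2 called 0.

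RD26 had 35.4, 131 and 137 CPM in roots after 1 h of PEG and 15.3, 9.58 and 14.9 CPM in roots in water. All PEG libraries lay above all water libraries. Its root log2 fold change in edgeR's quasi-likelihood fit was 2.61 (SE 0.411, adjusted p = 0.0243) at 1 h, 2.33 (SE 0.407, adjusted p = 0.0424) at 2 h and 1.61 (SE 0.405, adjusted p = 0.189) at 3 h. In roots the value was thus highest at 1 h, while in shoots RD26 was highest at 3 h.

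AT2G44130 had 30.4, 22.9 and 26.7 CPM in water, 77.2, 129.6 and 119.6 CPM after 1 h of PEG, 86.9, 69.7 and 110.3 CPM after 2 h and 93.3, 73.8 and 79.3 CPM after 3 h in roots. It was the 1 member called at all 3 times in edgeR's quasi-likelihood fit, with a log2 fold change of 1.71 (SE 0.272, adjusted p = 0.0243) at 1 h, 1.54 (SE 0.271, adjusted p = 0.0424) at 2 h and 1.47 (SE 0.271, adjusted p = 0.049) at 3 h. Its 3 PEG groups overlapped each other and lay above water. In the shoot the same gene had 6.32, 6.50 and 7.98 CPM in water, 68.3, 68.4 and 97.1 CPM after 1 h of PEG, 101, 112 and 100.1 CPM after 2 h and 148, 154 and 173 CPM after 3 h. AT2G44130 overlaps AT2G44140 on the other strand, so its counts carry the same limit of strand.

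CIPK5 had 32.7, 48.8 and 64.7 CPM in roots after 1 h of PEG and 20.04, 10.6 and 14.3 CPM in water, a log2 fold change of 1.39 (SE 0.258, adjusted p = 0.0384) in edgeR's quasi-likelihood fit. CIPK5 was not called with library totals as the scale (adjusted p = 0.0819) or with no filter on low counts (adjusted p = 0.0517), again in edgeR. The RD26 call at 2 h was lost with library totals (adjusted p = 0.0845), and that of AT2G44130 at 3 h with DESeq2's size factors in edgeR (adjusted p = 0.0521). Without root PEG 1 h replicate 1 all 3 members called at 1 h were still called, RD26 with an adjusted p of 0.000974 in edgeR's quasi-likelihood fit. Without root water replicate 1, 2 or 3, or without root PEG 1 h replicate 2 or 3, 0 members were called at 1 h, with adjusted p from edgeR's quasi-likelihood fit of 0.0652 to 0.127 for RD26. At 2 h and 3 h, leaving out any 1 library of the groups compared left 0 calls, while the log2 fold changes of AT2G44130 stayed between 1.37 and 1.70.

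Members not called held some of the larger root values. DREB2A had 10.3, 136 and 21.6 CPM in roots after 1 h of PEG and 4.42, 3.19 and 4.97 CPM in water, a log2 fold change of 3.42 (SE 0.881, adjusted p = 0.132) in edgeR's quasi-likelihood fit. All 3 PEG libraries lay above water, with the second far above the others. HB-12 had 1.52, 8.76 and 5.54 CPM after 1 h of PEG and 0.589, 0 and 0 CPM in water, so no fold is given against the 2 counts it had over the 3 water libraries. HSFC1 and MAPKKK18 had log2 values of 1.42 and 1.59 at 1 h, both with an unadjusted p under 0.05 only. Of the 58 members 15 had such a p for a higher root level at 1 h, 11 at 2 h and 7 at 3 h, against 6.99%, 4.75% and 4.56% of all genes tested.

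The median root log2 fold change of the 58 tested members was 0.45 at 1 h, 0.33 at 2 h and 0.32 at 3 h, beside 0.13, 0.06 and 0.11 over all genes tested. Members above 0 were 38, 41 and 42 of 58. Since the all-gene medians were above 0, most genes tested lay above 0 too, and their share was not counted. By role the 1 h medians were 0.94 for 7 metabolic enzymes, 0.73 for 12 transcription factors, 0.51 for 8 signalling and clock genes, 0.27 for 6 dehydration and cold proteins and -0.20 for 3 cell wall genes. When the counts were scaled by library totals alone, the all-gene median at 1 h moved from 0.13 to 0.41. The 3 members called at 1 h moved up as well, RD26 from 2.61 to 2.93, AT2G44130 from 1.71 to 2.03 and CIPK5 from 1.39 to 1.69. The size of small root values thus depends on the scale. The members' median with library totals is not given, so their 0.45 cannot be set against 0.41.

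**Figure D5:**
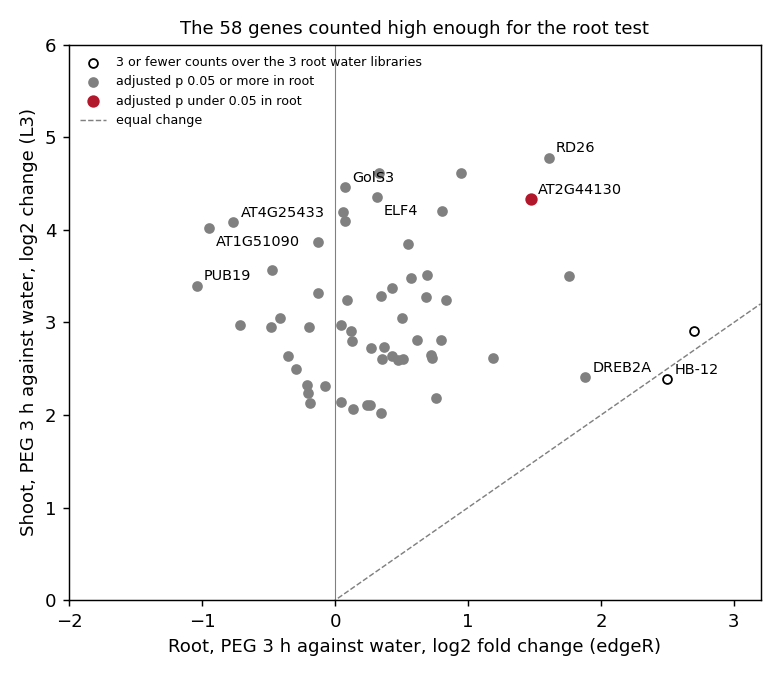
Log2 change after 3 h of PEG in shoots (y axis, from group means with 1 CPM added) against the edgeR log2 fold change in roots (x axis) for the 58 members tested in root. The red point, AT2G44130, is the 1 member with an adjusted p under 0.05 in root at 3 h. The 2 open points, HB-12 and AT4G12410, had 3 or fewer counts over the 3 root water libraries, so their place along the x axis depends on how the fit treats low counts.

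The widest gaps between tissues at 3 h, shoot change minus root log2 fold change, were 4.97 for AT1G51090, 4.84 for AT4G25433, 4.44 for PUB19 and 4.39 for GolS3. These are differences of values on unlike scales and were not tested, because the shoot side was selected. GolS3 had 5.56, 2.06 and 6.39 CPM in roots after 3 h of PEG and 4.13, 4.26 and 3.10 CPM in water, which overlapped. LTI30 averaged 35.3 CPM in shoots in water and 185 CPM in roots in water, and KIN2 averaged 382 CPM in those shoots and 1028 CPM in those roots. Their root log2 fold changes at 3 h were 0.80 and 0.83, neither with an adjusted p under 0.05. The 3 h root mean of KIN2 rests on 1 library, with 1071, 3291 and 1016 CPM.

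In each of the 14 pathway lists 4 to 13 genes could be tested in root. By edgeR's quasi-likelihood test with Benjamini-Hochberg adjustment RD26 was the 1 list gene called at 1 h. At 2 h RD26 and NCED3, which is not a member, were called, NCED3 with a log2 fold change of 3.01 (SE 0.520, adjusted p = 0.0424). At 3 h 0 of the list genes were called. Over all genes tested, 0.164%, 0.123% and 0.0513% were called higher at 1, 2 and 3 h, and 0.308%, 0.0615% and 0.174% lower. The median root log2 fold change at 1 h was 1.68 over the 4 tested NAC factors, 0.98 over 7 HD-Zip factors, 0.74 over 13 ABA signalling genes and 0.57 over 8 DREB and CBF factors. It was -0.06 over the 5 tested RD29, COR and KIN genes, whose own shoot median was 1.53 at 1 h. Among these, LTI78, KIN1 and KIN2 are members, so their shoot values were selected. The shoot and root values are on unlike scales, and their difference was not tested.

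The nearest comparison in the shoot is with the 68 early-plateau genes, of which 63 could be tested in root. By edgeR's quasi-likelihood test 3, 2 and 1 of the 58 tested members were higher in root at 1, 2 and 3 h, and 5, 5 and 1 of the 63 early-plateau genes. The root medians were 0.45, 0.33 and 0.32 for the members and 0.82, 0.85 and 0.68 for the early-plateau genes. Member promoters held the ABRE core in 50.7%, the DRE core in 31.5%, the evening element in 15.1% and the G-box in 24.7%. Early-plateau promoters held them in 39.7%, 26.5%, 8.82% and 13.2%. In the 250 bases before the start alone, the DRE core stood in 24.7% of members and 25% of early-plateau genes, and the evening element in 9.59% and 8.82%. Genes with 1 exon made up 35.6% of the protein-coding members and 66.2% of the early-plateau genes, beside 20.5% of all. None of these differences was tested, as both groups were picked on the same shoot values.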

How the data were processed

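RNA was measured by MARS-seq in 24 libraries, 8 groups of 3 replicates named by their source names, since the tissue field reads root for all. The authors' deposited table gives raw counts per gene and library, which were used as deposited. Its 48 columns of normalized or transformed values per library, and the authors' own comparisons, were not used here. Per the submitters' processing notes the tools were STAR 2.4.2a, HTSeq, cutadapt, bcl2fastq and DESeq2. Neither the genome build and annotation nor the strand of counting nor any collapsing of molecular identifiers is known (not given in the sources used here). Amplified copies counted as molecules would narrow the counting error, so precision is given as the spread between replicates. Of the locus codes 14457 matched RefSeq's TAIR10.1 gene table, and 100 organelle codes did not. Promoters were read from that assembly by locus code, so their positions are TAIR10.1 positions.

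Shoot values are CPM of library totals, with means of 3 libraries and a pseudocount of 1. Root contrasts were fitted by edgeR 4.0.16 under R 4.3.3, with genes kept by filterByExpr, TMM scaling and quasi-likelihood F tests (robust) in a fit of the 12 root libraries, two-sided, with Benjamini-Hochberg adjustment over 9751 genes within each of 4 contrasts. The biological coefficient of variation was 34.2%. Chi-square per degree of freedom between replicate libraries was 2.30 to 35.3, so no pair differed by counting error alone. This value cannot exclude libraries made from the same RNA, because amplified copies counted as molecules would raise it too. Whether replicates came from separate runs is not stated beyond the word biological.

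The members, pathway lists, roles and tests were chosen with earlier results of these data known. Genes named are the 10 with the largest 3 h shoot change, the 6 with the highest 3 h shoot CPM, 3 on each side of 2 limits, up to 8 called higher or lower in root, 4 with the widest gap to root, up to 6 with a 2 h mean outside the range, up to 5 with overlapping libraries, and each list member. Other members were named to account for the group. Alternatives were DESeq2 1.42.0 and its size factors, library totals, no filter, a replicate block, a fit of all 24 libraries, other pseudocounts, windows and backgrounds, and leaving out each replicate.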

Additional observations from a re-analysis of the deposited data

Results flagged for a closer look

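For 2 members all shoot libraries under PEG lay above all shoot libraries in water, while all root libraries under PEG lay below all root libraries in water at the same time. The difference between tissues was not tested. The rule picked genes for a rise in shoots, so it favoured the shoot side of this pattern. With so few libraries per group, root groups can stand apart by chance. The share of all genes with root libraries so placed was not counted, so 2 members cannot be called an excess. The first is AT4G25433, a LysM domain gene, at 1 h. In shoots it had 3.60, 5.96 and 2.44 CPM after 1 h of PEG and 0.395, 1.18 and 0.614 CPM in water. The change was 1.53, and the shoot water values rest on 5 counts in all. In roots it had 7.23, 6.26 and 2.64 CPM after 1 h of PEG and 9.73, 13.8 and 12.4 CPM in water, a change of -1.03 on the same scale. The root contrast by edgeR's quasi-likelihood test gave a log2 fold change of -1.50 (SE 0.541, adjusted p = 0.298).

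The second is PUB19, the U-box ubiquitin ligase gene, at 3 h. In shoots it had 97.2, 77.9 and 54.95 CPM after 3 h of PEG and 5.53, 4.73 and 8.90 CPM in water, a change of 3.39. In roots it had 59.99, 24.8 and 43.6 CPM after 3 h of PEG and 82.5, 69.7 and 78.9 CPM in water, a change of -0.83. The edgeR quasi-likelihood log2 fold change in roots was -1.04 (SE 0.441, adjusted p = 0.587). Neither root value passed the adjusted threshold.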

How the results depend on the processing

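The 75 members became 71 with TMM-scaled CPM (70 shared), 82 with a pseudocount of 0.5, 46 with a pseudocount of 5 and 69 to 82 when 1 of the 9 shoot libraries of the rule was left out. In all 9 of these leave-outs 55 members were kept. The 2 h mean stayed between the others in 68 to 70 genes without 1 of its libraries. In roots, 3 members called higher at 1 h became 2 with library totals, 2 with no filter on low counts, 6 in a fit of all 24 libraries, 15 at an unadjusted p under 0.05 (chosen after seeing the data) and 0 to 3 without 1 library. The 2 called at 2 h became 1 with library totals and 0 whichever 1 library was left out. The 1 called at 3 h became 2 with DESeq2, 2 in the fit of all 24 libraries, 0 with DESeq2's size factors and 0 whichever 1 library was left out. Over all genes the calls at 1, 2 and 3 h were 46, 18 and 22 by edgeR, 209, 106 and 113 by DESeq2, 226, 100 and 111 in the fit of all 24 libraries, and 1 to 43, 0 to 3 and 0 to 14 without 1 library. The cause was not tested. Library totals moved the all-gene root median at 1 h to 0.41. For the HD-Zip I site the members lay -1.19 percentage points from genes of at least 10 CPM. The evening element difference of 12.3 points became 7.23 in the 250 bases before the start alone, and the CGCG box difference became 3.14 against genes of at least 10 CPM. All motif differences kept their sign with the other background and window. Each alternative difference was set against the binomial interval of the members' share minus the all-promoter share. Only that of the HD-Zip I site from genes of at least 10 CPM fell outside. With 0 of 73 members holding this site, the interval cannot go below -1.07. This flag thus follows from the share of 0 and does not show a departure from background.

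With the replicate number as a block, the members called higher in root were 2 at 1 h, 1 at 2 h and 0 at 3 h. Root libraries of different groups with the same number deviated together in 9 of 18 pairs (correlation over 0.1, range -0.53 to 0.68). The median correlation was 0.09 for the same number and -0.05 for different numbers. These values cannot settle whether the numbers pair the samples, and shoot libraries were not compared in this way.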
